A study of Mus musculus with 15 samples.

Results

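Ribosome-bound mRNA was compared between PN5 zygotes of Eif4e1b knockout (KO) mothers and PN5 zygotes of heterozygous (Het) mothers. The comparison held 6 of the 15 libraries of the series, 3 Het and 3 KO, and was chosen by stage and donor genotype alone. PN5 is the late zygote, in which the maternal and paternal pronuclei are large and lie close together. The remaining libraries were 4 of M2 eggs and 5 of early 2-cell embryos, with the same pair of donor genotypes.

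The donors of the Het group were Eif4e1b Het females with HA-tagged Rpl22, and those of the KO group were Eif4e1b KO females with the same tag. All were of the B6D2F1 strain, so the tagged large-subunit protein Rpl22 was shared by both groups. About 200 zygotes were pooled for a library, and RNase I (100 units, 45 min) trimmed the mRNA to the ribosome-covered fragments. Tagged ribosomes were then pulled down over 4 h with antibody to HA, and 22 PCR cycles amplified the fragments. The genotype is that of the mother. The age of the females, the sire, the genotype of the zygotes and what drives the tag are not given in the labels. The labels do not say that the libraries came from separate animals, so the p-values measure the spread between these libraries, which may be technical.

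Translation of a capped mRNA usually starts when eIF4E binds the cap and eIF4G brings in the small ribosomal subunit. Eif4e1b is a relative of eIF4E found in oocytes. The zygote relies on mRNAs stored by the egg, because its own genome is mostly silent at first, and which stored mRNAs are bound by ribosomes is regulated by tail length and by proteins on the cap and the 3′ end. The design asks which of those mRNAs are recovered with ribosomes in other amounts in zygotes that developed from eggs lacking Eif4e1b. Every library of the series is a ribosome pulldown, with no library of total RNA beside it. A change in ribosome binding and a change in the amount of an mRNA therefore cannot be told apart. No pulldown without the tag is among the libraries, so RNA carried along without ribosomes was not measured.

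Most of each PN5 library was not mRNA. Cytosolic rRNA took 58.9% to 86.4% of the 401550 to 1201146 counts of a library, and mitochondrially encoded rows took 9.54% to 36%. Both were dropped before scaling. Protein-coding genes held 36919, 33198 and 8614 counts in the 3 Het libraries and 15395, 11811 and 39997 in the 3 KO libraries. The Het group thus held both deep and shallow libraries, and so did the KO group.

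The share of all counts in protein-coding genes was 4.15%, 2.76% and 1.14% in Het and 2.53%, 2.94% and 4.49% in KO. The groups overlapped, with a mean of 2.68% ± 1.51 (SD, n = 3) in Het and 3.32% ± 1.03 (SD, n = 3) in KO. The difference of 0.45 in mean log2 share had p = 0.6 in a two-sided exact permutation test. With 3 libraries a group that test allows no p below 0.1. Without the third Het library the difference was -0.07. Of the counts left after the drop, protein-coding genes took 69.9% to 84.2% in Het and 51.8% to 87.7% in KO (exact permutation p = 0.9). KO library 2 was the lowest of these, and without it the log2 difference turned from -0.09 to 0.15. Levels are given as CPM, scaled with TMM factors to the counts left after the drop, and they move with mRNA length, so they are compared between libraries and not between genes.

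In the pulldowns mRNAs were counted for 3002 of the 21443 protein-coding genes of the table in at least 1 PN5 library. They were counted for 1139 with 10 counts or more over the 6 libraries, and for 166 in all 6. When every library was drawn down to 8614 protein-coding counts, the expected numbers of genes were 1156, 733 and 461 in Het and 769, 1064 and 742 in KO. The groups again overlapped (difference 75.1 genes, exact permutation p = 0.8), and the difference was -86.1 without the third Het library and -27.9 without the second KO library. The 10 leading mRNAs of a library took 26.4%, 33.3% and 55.9% of its protein-coding counts in Het and 41.0%, 29.3% and 40.1% in KO (difference -1.73 percentage points, exact permutation p = 0.9). That difference was 6.95 without the third Het library and 2.03 without the second KO library. Adjusted over the 4 composition tests, every p was 0.9.

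**Figure D1:**
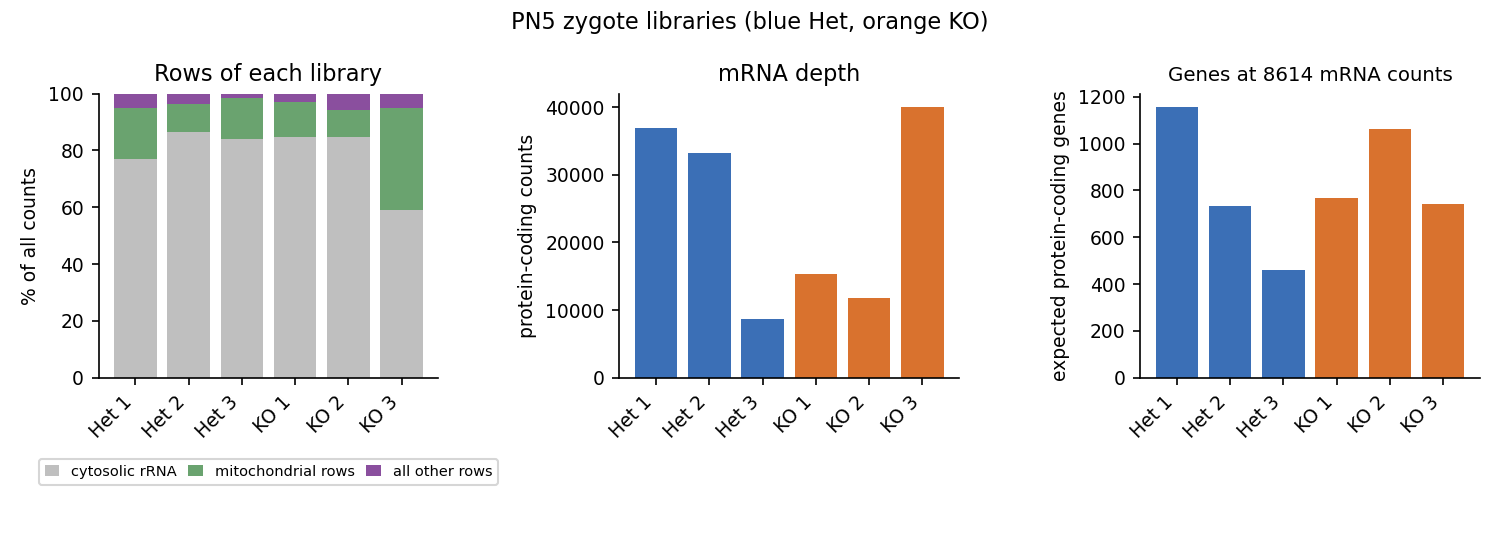
Make-up of the 6 PN5 libraries. Left, percent of all counts in cytosolic rRNA, mitochondrial and all other rows; middle, protein-coding counts; right, protein-coding genes expected at the lowest protein-coding total of 8614 counts (blue Het, orange KO, 1 bar a library). KO library 3 had 36% mitochondrial counts, and Het library 3 had the fewest protein-coding counts and 461 genes.

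Eif4e1b itself had 0 counts in all 6 PN5 libraries. A count of 0 over a group allows up to 3 counts, or 38 CPM in Het and 40 CPM in KO, so the targeted mRNA was under the detection limit in both groups and gave no check of the genotype labels. Such limits cover counting error only. Rpl22, the tagged gene, was also listed at 0 in all 6.

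A 0 in this table is not a safe sign of absence. Of the 214 protein-coding genes with at least 50 counts in some PN5 library, 131 (61.2%) were listed at 0 in another, and 22 had counts in a single library. Zeros of this kind were most common in Het library 3, with 118 genes, against 29 to 69 in each of the others. Calnexin mRNA (Canx), for a chaperone of the endoplasmic reticulum, had 791 counts in Het library 2, 400 in KO library 1 and 1261 in KO library 3 and was listed at 0 in the other libraries. Genes that every cell uses were near 0 as well. Gapdh had 3 counts in Het library 1 and 0 elsewhere, Actb had 5 counts in Het library 1 and 4 in KO library 2, and Tuba1b was listed at 0 throughout. A gene at 0 in a library is therefore given below by its value in each library and as listed at 0.

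The labelled cell type was visible through few of its markers. Of 18 oocyte and zygote markers in the table, 9 had a count in PN5, and Zp1, Zp2, Zp3 and Gdf9 were at 0 in every library. The summed level of these markers was 194, 11549 and 82.1 CPM in Het and 3343, 65.1 and 695 CPM in KO. The high Het value came from Npm2, a histone chaperone of the egg, with 321 counts in Het library 2 and 0 in the others. Of 10 sperm and blood markers, 1 had a count.

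The mRNAs with the largest share of the protein-coding counts coded for nucleolar, chromatin, translation and cytoskeletal proteins. Nucleolin (Ncl), a main protein of the nucleolus, led with a mean of 5.95% over the 6 libraries. Its level was 40293, 53140 and 28809 CPM in Het and 97071, 39737 and 66988 CPM in KO. The groups overlapped, with means of 40747 ± 12171 (SD, n = 3) and 67932 ± 28678 (SD, n = 3), and the fitted log2 fold change was 0.74 with a 95% interval of -0.83 to 2.30. Eif5b, the GTPase that joins the ribosomal subunits, followed with 5.48%. It stood at 35714, 36497 and 82899 CPM in Het and 39631, 36154 and 49592 CPM in KO, so all libraries except Het library 3 lay close together. Its log2 fold change was -0.31 (interval -1.82 to 1.21).

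Nexn, which codes for the actin-binding protein nexilin, was at 40238, 31274 and 43337 CPM in Het and 46621, 38304 and 24947 CPM in KO. Its fitted change of -0.06 was close to 0. Anp32b, coding for an acidic histone chaperone, was at 23726, 44705 and 24706 CPM in Het and 49538, 18761 and 59923 CPM in KO, with the highest and the lowest value both in KO. Top1, DNA topoisomerase I, ranged from 22255 to 31354 CPM in Het and from 15374 to 27960 CPM in KO. Map1b, a microtubule-associated protein, ranged from 14956 to 18149 CPM and from 10576 to 19804 CPM. All 4 overlapped between the groups. The intervals of their fold changes ran from the narrowest, -2.02 to 1.71 for Map1b, to the widest, -2.93 to 3.85 for Anp32b.

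Acbd3, a Golgi protein, showed how a leading mRNA could drop out of a library: it had 827, 1580 and 565 counts in Het and 672, 0 and 2356 in KO. Psip1, a chromatin-bound protein also known as LEDGF, had 809 and 710 counts in Het libraries 1 and 2, 361 and 271 in KO libraries 1 and 2, and was listed at 0 in the third library of each group. Both therefore overlapped between the groups.

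Smarca2 and Lrrfip1 had the most negative fitted changes of the 10 leading mRNAs. Smarca2, the BRM ATPase of the BAF remodelling complexes, was at 16622, 37340 and 50068 CPM in Het and 7476, 3648 and 25850 CPM in KO. KO library 3 lay above Het library 1, so the groups overlapped, and the log2 fold change of -1.49 ± 0.96 (SE) had an interval of -3.53 to 0.55. Lrrfip1, which codes for a protein that binds Flightless, was at 26030, 29554 and 54090 CPM in Het and 21274, 12768 and 17118 CPM in KO. All 3 KO values lay below all 3 Het values. The log2 fold change of Lrrfip1 was -1.10 ± 0.82 (SE), with an interval of -2.85 to 0.65 and an adjusted p of 1 in edgeR's quasi-likelihood test.

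No gene passed the test of KO against Het. Of 533 genes tested with edgeR's quasi-likelihood test, 457 of them protein-coding, 0 (0%) had a Benjamini-Hochberg adjusted p under 0.05, and the smallest adjusted p was 0.664. In pooled libraries such as these, fewer zygotes holding an mRNA and less of it in each zygote cannot be told apart. At an unadjusted p under 0.05, 39 genes (7.32%) were found, 10 higher in KO (1.88%) and 29 lower (5.44%). That balance moved with the library left out. Without Het library 1 it was 16 higher and 12 lower, and without KO library 1 it was 10 higher and 9 lower. Lower genes stayed in excess without Het library 2 (6 higher, 14 lower) or Het library 3 (8 higher, 27 lower). The same held without KO library 2 (7 higher, 14 lower) or KO library 3 (7 higher, 10 lower). With limma-voom 0 genes were called and 36 were at an unadjusted p under 0.05. DESeq2's Wald test gave 21 genes at that level and called 1, Nasp, which is described below.

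Of the 35 protein-coding genes at an unadjusted p under 0.05, 7 were higher and 28 lower in KO. All counts of 31 of them lay in a single group, and for 11 of these in a single library. The other 4 were Nusap1, Taf7, Ddx24 and Slc24a3. Of all 457 tested protein-coding genes, 41 were listed at 0 in every KO library and 15 in every Het library. Both numbers include 2 genes at 0 in all 6. Among the 140 tested protein-coding genes with a count in every PN5 library, 2 were at an unadjusted p under 0.05. Their 95% intervals reached a median of 2.71 log2 units to each side of the fold change (1.52 to 4.22), and 96 of the 140 fitted changes lay within 1 log2 unit of 0. The spread between libraries had a coefficient of variation of 1.33 in the fit. Differences of a few fold were therefore not detectable with this spread.

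**Figure D2:**
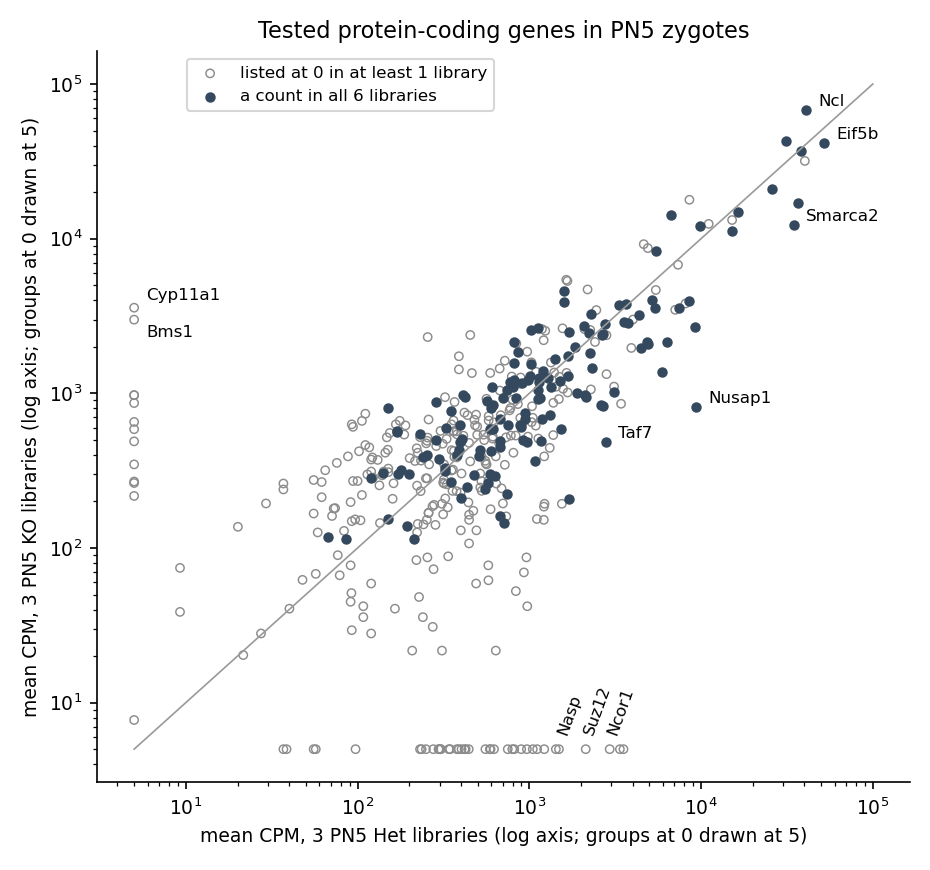
Mean level of each tested protein-coding gene in the 3 PN5 Het (x) and 3 PN5 KO (y) libraries, in CPM on log axes, with groups at 0 drawn at 5. Filled points are genes with a count in all 6 libraries; open points were listed at 0 in at least 1. The open points along the lower and left edges are genes listed at 0 throughout 1 group, among them Ncor1, Nasp, Cyp11a1 and Bms1; Nusap1 and Taf7 are labelled filled points under the line.

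Libraries of the same genotype were no more alike than libraries of different genotype. Pearson's r between libraries, over log2(CPM + 1) of the 533 tested genes, was 0.297 to 0.428 within Het, 0.285 to 0.415 within KO and 0.265 to 0.487 between Het and KO. These values are across genes, which are not independent, and libraries share the zeros of genes that few libraries counted.

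Among the mRNAs counted in all 6 libraries, Nusap1 had the smallest unadjusted p in edgeR's quasi-likelihood test. It codes for a microtubule-binding protein that bundles spindle microtubules and lies on chromosome 2 (119618298 to 119650165, RefSeq annotation of GRCm38.p6). It had 195, 325 and 147 counts in Het and 6, 9 and 65 in KO. The levels were 5411, 10544 and 12065 CPM in Het and 365, 586 and 1506 CPM in KO, with means of 9340 ± 3487 (SD, n = 3) and 819 ± 605 (SD, n = 3). Every Het library was thus well above every KO library, including the shallow Het library 3. The log2 fold change was -3.49 ± 1.15 (SE), with a 95% interval of -5.92 to -1.05. The unadjusted p was 0.00796, and the adjusted p in edgeR's quasi-likelihood test was 0.664, with a range of 0.0613 to 1 over the alternatives.

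Taf7, a subunit of the general transcription factor TFIID, also separated the groups. Its counts were 58, 89 and 47 in Het and 6, 5 and 33 in KO, which came to 1610, 2887 and 3858 CPM and to 365, 326 and 764 CPM. The means were 2785 ± 1128 (SD, n = 3) in Het and 485 ± 243 (SD, n = 3) in KO. The log2 fold change was -2.49 (interval -4.82 to -0.16) with an unadjusted p of 0.0376 and the same adjusted p of 0.664 in edgeR's test (0.157 to 1 over the alternatives). Ddx24, coding for a DEAD-box RNA helicase, had 26, 17 and 15 counts in Het and 0, 1 and 4 in KO. Slc24a3, a sodium-calcium exchanger of the plasma membrane, had 11, 35 and 18 counts in Het and 1, 1 and 0 in KO. For both the KO values rest on at most 4 counts, and neither passed the test (adjusted p = 0.664 for each in edgeR's test).

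In 41 of the 533 tested genes (7.69%) the 3 KO libraries did not overlap the 3 Het libraries, 30 lower in KO (5.63%) and 11 higher (2.06%). The split depended on the scaling. It was 27 lower and 13 higher without TMM factors, 21 and 19 when the counts were divided by protein-coding totals, and 14 and 14 when they were divided by all counts. The share of lower genes fell from 73.2% to 67.5%, 52.5% and 50%. Among the 140 genes counted in all 6 libraries the same scalings gave 18 lower and 4 higher, 14 and 6, 11 and 7, and 6 and 5.

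Genes of that set with larger counts are given here as values; they were chosen after their values were seen, and none passed the test. Rbm25, a splicing factor, was at 6466, 8500 and 10588 CPM in Het and 3708, 4886 and 3197 CPM in KO. By share of protein-coding counts its groups overlapped, with 0.635% in KO library 2 and 0.631% in Het library 1. Atad2, a bromodomain ATPase of chromatin, was at 3025, 8370 and 7551 CPM in Het and 2249, 1238 and 2942 CPM in KO, so the highest KO value was just under the lowest Het value. By share of protein-coding counts that order turned, with 127 of 39997 in KO library 3 and 109 of 36919 in Het library 1. Psmd1, a subunit of the proteasome's regulatory particle, was at 1055, 2725 and 1313 CPM in Het and 243, 261 and 116 CPM in KO, a wider gap that rests on 4 to 5 counts in each KO library. H1f1, a linker histone, was at 4329, 2401 and 2627 CPM in Het and 1216, 456 and 1390 CPM in KO.

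Hmgn5, a nucleosome-binding protein, was higher in every KO library than in any Het library. It was at 1055, 1395 and 2298 CPM in Het and 3586, 3453 and 4679 CPM in KO. Its means were 1583 ± 643 (SD, n = 3) and 3906 ± 673 (SD, n = 3), with a log2 fold change of 1.31 (interval -0.94 to 3.55). The adjusted p was 1 in edgeR's test.

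**Figure D3:**
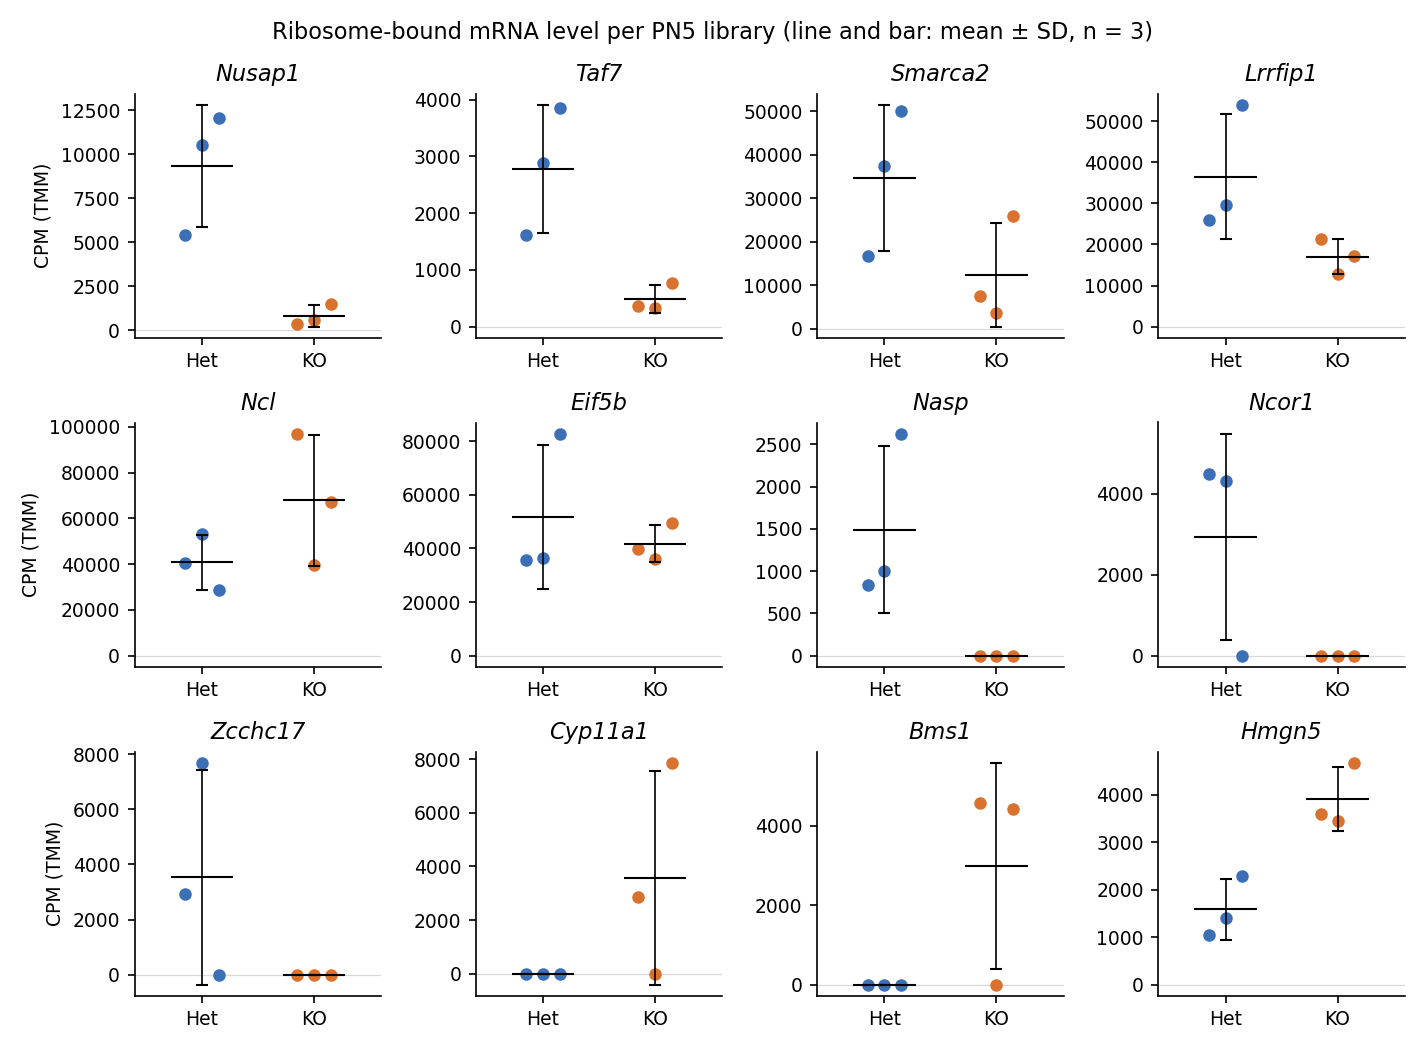
Level of 12 mRNAs in each PN5 library, in CPM (blue Het, orange KO; line and bar, mean ± SD, n = 3). Nusap1, Taf7, Lrrfip1, Nasp and Hmgn5 do not overlap between the groups; Ncor1, Zcchc17, Cyp11a1 and Bms1 were listed at 0 in every library of 1 group and in 1 library of the other.

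Most of the smallest p-values belonged to mRNAs listed at 0 in all 3 KO libraries. Nasp, which codes for a histone chaperone, was the clearest of them, with 30, 31 and 32 counts in the 3 Het libraries (833, 1006 and 2627 CPM) and 0 in each KO library. Its unadjusted p was 0.0113 and its adjusted p was 0.664 in edgeR's test. DESeq2's Wald test called it, with an adjusted p of 3.8e-07, and no other alternative did. The DESeq2 log2 fold change of -23.26 has no meaning as a size, since it is a fit against zeros. The adjusted p of DESeq2 came from that same fit. In the M2 and early 2-cell libraries Nasp had 15 counts in M2 Het library 2, 51 in early 2-cell Het library 3 and 0 in the rest.

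The others were counted in Het libraries 1 and 2 and listed at 0 in Het library 3 as well as in KO. Ncor1, a nuclear receptor corepressor, had 162 and 133 counts in those 2 libraries. Zcchc17, a nucleolar zinc-knuckle protein, had 105 and 237 counts. Wasf2, a WAVE-family regulator of actin, had 49 and 55. Brdt, a bromodomain protein best known from spermatogenesis, had 26 and 47 counts. Wasf2 and Brdt were listed at 0 in all 12 libraries other than PN5 Het. They passed the count filter through PN5 Het alone, so their place among the smallest p-values is no support for a difference. Ncor1, Zcchc17, Wasf2 and Brdt were thus counted in the 2 deeper Het libraries and in none of the 3 KO libraries. Het library 3 was the shallowest library, and 3 counts in it came to 246 CPM. In Het libraries 1 and 2 Ncor1 stood at 4496 and 4315 CPM. The part of depth in the zeros of Het library 3 was not tested.

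Still other mRNAs rested on 1 library. Ssb, the La protein that binds new RNA polymerase III transcripts, had 132 counts in Het library 1 alone. Suz12, a core subunit of Polycomb repressive complex 2, had 197 counts in Het library 2 alone, and Upf3b, a factor of nonsense-mediated decay, had 132 there. Epb41l4a, a FERM-domain protein, was counted in all 3 Het libraries but with 9, 1 and 9 counts. The adjusted p was 0.664 for each of the mRNAs from Ncor1 to Epb41l4a in edgeR's test.

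In the opposite direction, Cyp11a1 had the smallest p of all genes (unadjusted 0.0043, adjusted 0.664 in edgeR's test). It codes for the enzyme that makes pregnenolone from cholesterol, the first step of steroid synthesis in granulosa cells. It was listed at 0 in all Het libraries and in KO library 2, with 47 counts in KO library 1 and 340 in KO library 3. Markers of cumulus and granulosa cells as a list were counted for 7 of 18 genes. Their summed level was 694, 0 and 0 CPM in Het and 2978, 1629 and 8223 CPM in KO. Among the defining markers Star, Fshr, Lhcgr, Amh and Inha were at 0 in all 6 libraries. Cyp11a1 itself gave 47 of the list's 49 counts in KO library 1 and 340 of 355 in KO library 3. Without it the sums were 694, 0 and 0 CPM in Het and 122, 1629 and 347 CPM in KO, and the groups overlapped. Inhba had 2 counts in Het library 1 and 2, 9 and 14 in the KO libraries, Vcan had 14 in Het library 1 and 15 in KO library 2, and Hsd3b1 and Foxl2 had 6 and 3 in Het library 1 alone. The part of such cells in the differences between the groups was not tested.

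Bms1, a GTPase of small-subunit assembly, had 75 and 191 counts in KO libraries 1 and 3 and was listed at 0 elsewhere. Spin1, a chromatin reader abundant in eggs, had 7 and 45 in the same libraries. Rbm6, an RNA-binding protein, had 13 and 48 counts in KO libraries 2 and 3. Bmp15, the growth factor of the oocyte, had 11 and 6 counts in KO libraries 1 and 3. Sart3, a splicing factor, and Safb2, a scaffold attachment factor, each had 48 counts in KO library 1, Cwc15, a spliceosomal protein, had 112 in KO library 3, and Cep290 and Igsf11 had 27 and 16 in KO library 2. No gene of this direction was counted in all 3 KO libraries and in no Het library among those named, and none passed the test.

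The gene lists are described by counts and by the median fitted log2 fold change, beside a median of 0.02 and 48.2% of changes below 0 over all 533 genes tested. No member of any list was called, against 0% of all genes. That background moved with the processing, to a median of 0.22 with DESeq2 size factors, to -0.24 with limma-voom and to 0.44, with 35% of changes below 0, without Het library 1. Each list median is therefore given with its range over all 18 alternatives in parentheses. Its sign was the same in all of them for the nucleolar, modification enzyme, transcription and maternal-effect lists, and it turned in 1 to 9 of them for the other lists. Some genes stand in more than 1 list.

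Nucleolar and ribosome biogenesis factors numbered 21 tested of 70, 6 higher and 15 lower in KO. Their median was -0.66 (-1.0 to -0.21), and it was -0.66 also among the 19 members counted in both groups. Besides Zcchc17, Bms1 and Ncl the list held Dkc1, the pseudouridine synthase dyskerin, with 3, 18 and 13 counts in Het and 0, 0 and 8 in KO. Ddx21, an RNA helicase of the nucleolus, was at 2276, 1947 and 2134 CPM in Het and 1216, 586 and 1112 CPM in KO, without overlap, and Ppan had at most 6 counts in a library. By its share of protein-coding counts the list was not lower in KO, since Ncl dominated it: 5.64% to 7.86% in Het and 5.66% to 12.3% in KO.

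Translation factors numbered 9 tested of 58, 5 higher and 4 lower, with a median of 0.05 (-0.88 to 0.68). Apart from Eif5b their counts were low. Eif4g2, an eIF4G relative without the eIF4E-binding part, had 17, 12 and 4 counts in Het and 9, 18 and 6 in KO. Eef1a1, the main elongation factor, had 53, 6 and 0 in Het and 2, 15 and 0 in KO, and Eif3c had 33 counts in Het library 1 alone. Cytosolic ribosomal proteins were counted for 31 of 80 genes, with 915 counts in all, and 3 were tested. Rpl4 was at 1915, 4282 and 1724 CPM in Het and 4437, 1173 and 1506 CPM in KO, Rps14 had 120, 13 and 1 counts in Het and 10, 33 and 43 in KO, and Rps25 had 26, 5 and 3 in Het and 4, 7 and 0 in KO. All 3 overlapped between the groups. Their median was -0.16 (-0.70 to 0.19), and it was 0.04 with DESeq2 size factors.

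Chromatin remodelling complexes numbered 21 tested of 73, 10 higher and 11 lower, with a median of -0.45 (-1.01 to 0.35). Among the 18 members counted in both groups the median was 0.05. Rbbp7, a histone-binding subunit shared by several complexes, had 52 and 10 counts in Het libraries 1 and 2 and 0 in the rest, and the ATPase Ino80 and the PBAF subunit Brd7 had 48 and 41 counts in Het library 1 alone. Smarca4, the BRG1 ATPase that can take the place of Smarca2, was at 777, 260 and 985 CPM in Het and 304, 912 and 834 CPM in KO. Its fitted change of 0.03 turned to -0.07 without TMM factors, and the groups overlapped. The list took 5.47% to 9.04% of protein-coding counts in Het and 3.52% to 6.30% in KO, with means of 6.73% and 4.57%. Smarca2 alone took a mean of 4.06% in Het and 1.35% in KO, so the lower share of the list in KO rested on this 1 gene.

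DNA and histone modification enzymes and coregulators numbered 21 tested of 84, 7 higher and 14 lower. Their median of -0.91 (-1.35 to -0.12) was the lowest of the lists with at least 3 tested members, and it was -0.32 among the 16 members counted in both groups, 9 of them lower. Besides Ncor1, Brdt and Suz12, Brd1, a bromodomain protein of histone acetyltransferase complexes, had 24 and 5 counts in Het libraries 1 and 2 and 0 elsewhere. Kmt2c, a histone methyltransferase of enhancers, was at 444, 714 and 575 CPM in Het and was listed at 0 in KO libraries 1 and 2, with 232 CPM in KO library 3. Dnmt1, the maintenance DNA methyltransferase, had 62, 98 and 2 counts in Het and 34, 11 and 104 in KO.

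Transcription kinases, TFIID subunits and elongation factors numbered 9 tested of 60, 1 higher and 8 lower, with a median of -0.36 (-1.25 to -0.10). After Taf7 came Taf3, another TFIID subunit, with 108, 224 and 0 counts in Het and 18, 7 and 44 in KO. Hexim1, an inhibitor of the elongation kinase, had 27, 3 and 1 counts in Het and 2, 7 and 0 in KO. Cdk11b, a kinase of transcription and splicing, had 308, 761 and 0 counts in Het and 219, 97 and 766 in KO. All of these except Taf7 overlapped between the groups.

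Histone variants and chaperones numbered 10 tested of 33, 5 higher and 5 lower, with a median of 0.02 (-1.17 to 0.39). Nap1l1, a histone chaperone, was at 1193, 584 and 0 CPM in Het and 1276, 1303 and 1482 CPM in KO, without overlap. Anp32e, a chaperone of a histone variant, had 46, 14 and 0 counts in Het and 8, 5 and 0 in KO. Atrx, a remodeller that works with the histone chaperone Daxx, was at 13126, 7559 and 8782 CPM in Het and 14223, 10683 and 11095 CPM in KO, so the groups overlapped (log2 fold change 0.29, interval -1.38 to 1.96).

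DNA-bound and architectural proteins numbered 11 tested of 31, 4 higher and 7 lower, with a median of -0.20 (-0.47 to 0.38) that was 0.07 with DESeq2 size factors. They included Top1, Psip1 and Hmgn5. Dek, an acidic chromatin protein, had 291, 405 and 0 counts in Het and 171, 0 and 0 in KO, and Ybx1, which binds DNA and stored mRNA, had 69, 0 and 3 counts in Het and 2, 14 and 0 in KO. Splicing and nuclear RNA-binding proteins numbered 27 tested of 61, 13 higher and 14 lower, with a median of -0.03 (-0.71 to 1.64).

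Spindle, kinetochore, cohesin and cell cycle genes numbered 14 tested of 77, 9 higher, 4 lower and 1 with no count in PN5, with a median of 0.33 (0.00 to 0.51). Nusap1 thus lay apart from most of the list. Cenpe, the kinetochore kinesin, was at 3802, 1200 and 0 CPM in Het and 6747, 4039 and 5189 CPM in KO, without overlap. Smc4, a condensin subunit, was at 3025, 1330 and 410 CPM in Het and 6747, 5277 and 1737 CPM in KO, and Stag1, a cohesin subunit, had 9, 3 and 2 counts in Het and 6, 18 and 8 in KO. Incenp, of the chromosomal passenger complex, had 62, 133 and 27 counts in Het and 81, 11 and 119 in KO. None of these differences passed the test.

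Cytoskeletal and cortical proteins numbered 20 tested of 55, 9 higher and 11 lower, with a median of -0.11 (-0.35 to 0.47). Myh9, a nonmuscle myosin heavy chain, had 79 and 8 counts in Het libraries 1 and 2, and Tpm1, a tropomyosin, and Macf1, an actin-microtubule linker, had 86 and 33 in Het library 1 alone; all 3 were listed at 0 elsewhere. Akap12, a cortical scaffold of protein kinase A, was at 6299, 8500 and 12722 CPM in Het and 2127, 195 and 5768 CPM in KO, without overlap at this scaling. Divided by protein-coding totals the groups overlapped, with 249 of 39997 counts in KO library 3 and 227 of 36919 in Het library 1. Proteins of the endoplasmic reticulum, the Golgi and chaperones numbered 11 tested of 47, 5 higher and 6 lower, with a median of -0.25 (-0.72 to 0.47). Pdia4, a disulfide isomerase, had 30, 2 and 1 counts in Het and 1, 10 and 47 in KO. Dnajc21 had 32, 85 and 0 in Het and 0, 7 and 0 in KO, Dnajb1 had 32 in Het library 1 alone, and Hsp90ab1 had 363 counts in Het library 2 and 97 in KO library 1.

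Maternal-effect genes, which the egg must supply for early development, numbered 5 tested of 47. All 5 fitted changes were positive, with a median of 0.59 (0.09 to 0.84), but Smarca4 changed sign with the scaling as given above. Zbed3, of the subcortical maternal complex, was at 1554, 973 and 821 CPM in Het and 4255, 261 and 3359 CPM in KO. Tet3, the dioxygenase that oxidises methylcytosine in the paternal genome, had 13, 0 and 0 counts in Het and 12, 6 and 0 in KO, and Kdm1a, a histone demethylase, had 53, 17 and 0 in Het and 3, 37 and 23 in KO. Each of these overlapped between the groups.

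Genes of maternal mRNA storage, tailing and decay numbered 7 tested of 51, 5 higher and 2 lower, with a median of 0.84 (-0.66 to 3.17), the lowest of these values without KO library 2. Tut7, which adds uridines to mRNA tails, had 17, 2 and 4 counts in Het and 5, 15 and 59 in KO. Cnot1, the scaffold of the CCR4-NOT deadenylase, had 11, 2 and 0 in Het and 1, 4 and 23 in KO, and Smg1, the kinase of nonsense-mediated decay, had 12, 1 and 0 in Het and 0, 17 and 2 in KO. The 3 overlapped between the groups. Pluripotency factors were counted for 2 of 31 genes with 28 counts in all, genes of zygotic genome activation for 6 of 33 with 19 counts, and the longer list of sperm and blood genes for 2 of 24 with 2 counts, and no member of these 3 lists was tested.

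**Figure D4:**
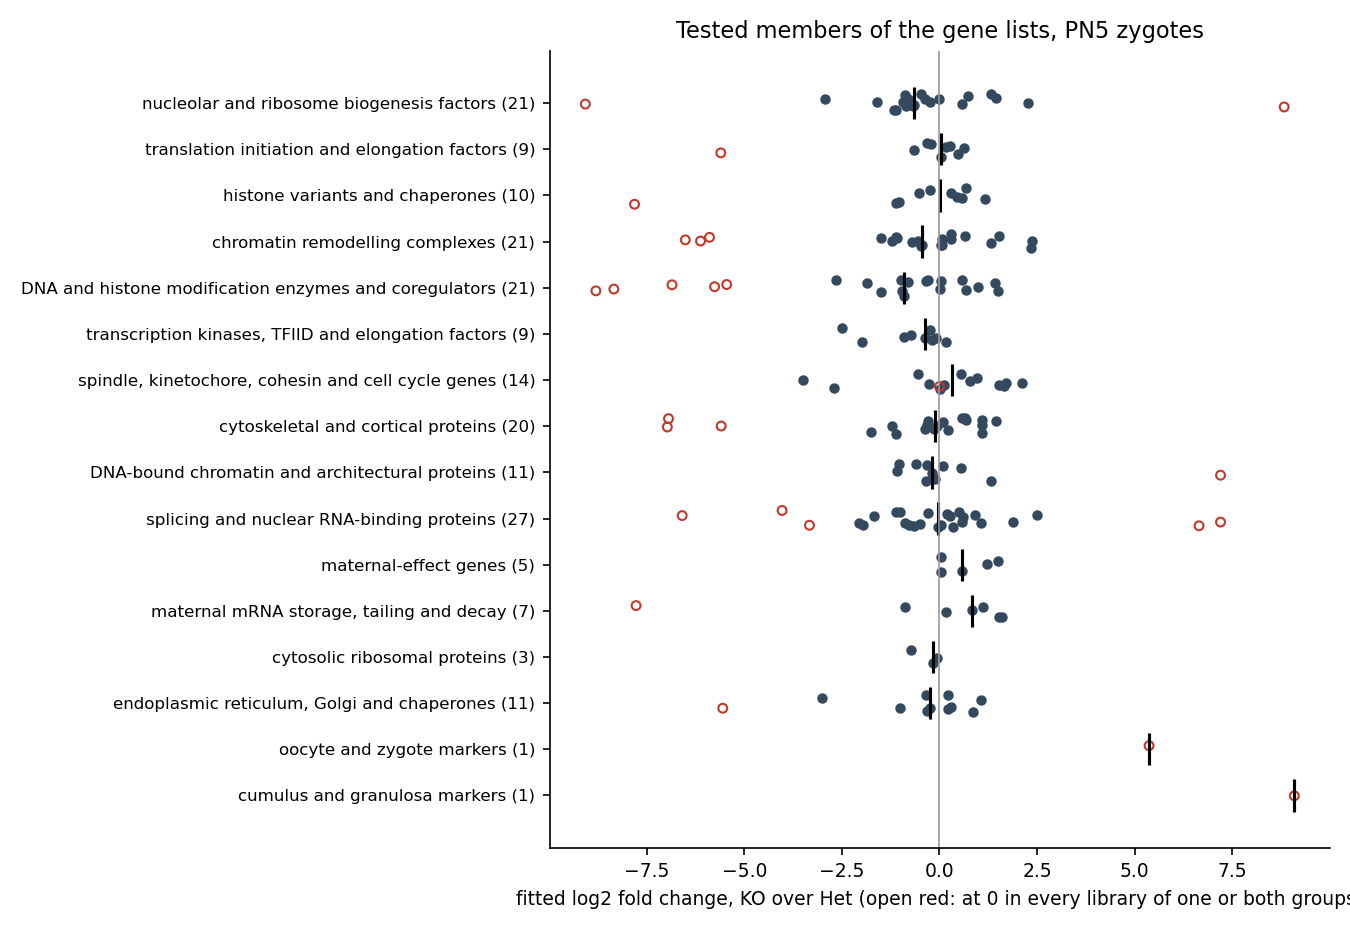
Fitted log2 fold change, KO over Het, of each tested member of the gene lists (number tested in parentheses; vertical tick, list median). Open red points were listed at 0 in every library of 1 or both groups, so their position is no measure of size. List medians lie between -0.91 and 0.84 except for the 2 marker lists with 1 tested member each, and no member was called.

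The difference between the groups at PN5 was set against that of M2 eggs and of early 2-cell embryos by interaction terms in the same fit. None of the 533 genes (0%) was called for the PN5 difference minus the M2 difference, with a smallest adjusted p of 1 in edgeR's test and 22 genes (4.13%) at an unadjusted p under 0.05. None (0%) was called for the early 2-cell difference minus the PN5 difference either, where the smallest adjusted p was 0.739 and 33 genes (6.19%) were at an unadjusted p under 0.05. The early 2-cell libraries held 1059 to 7795 protein-coding counts, so that comparison was the shallower of the 2. DESeq2's Wald test and limma-voom also called 0 genes in both, with 13 and 33 genes at an unadjusted p under 0.05 in the first and 26 and 23 in the second. Without a low-count filter 2 genes were called for the early 2-cell difference minus the PN5 difference, Cdk11b (adjusted p = 0.00504) and Ncor1 (adjusted p = 0.00151), both with 0 counts in every library of some group.

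The high Nusap1 level was seen in PN5 Het and in no other group. Nusap1 stood at 181 and 993 CPM in the M2 Het libraries, 587 ± 574 (SD, n = 2), and at 173 and 984 CPM in M2 KO. In early 2-cell embryos it ranged from 241 to 1155 CPM in Het and from 573 to 836 CPM in KO. Over the 12 libraries other than PN5 Het the range was 173 to 1506 CPM, against a lowest PN5 Het value of 5411 CPM. The PN5 difference minus the M2 difference was -3.40 on the log2 scale (unadjusted p = 0.0691), and the early 2-cell difference minus the PN5 difference was 3.58 (unadjusted p = 0.0463, adjusted p = 0.739 in edgeR's test). Neither passed the test, so the Nusap1 difference was not shown to be particular to PN5. Nusap1 was chosen by its small p at PN5. Both terms and the range over 12 libraries hold PN5 values used in that choice, so they give no independent support.

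Taf7 was at 858 and 1192 CPM in M2 Het and at 141 and 368 CPM in M2 KO. In eggs too the Het values lay above the KO values, but on few counts: 19 and 24 in Het, 1 and 17 in KO. In early 2-cell embryos Taf7 ranged from 0 to 237 CPM in Het and from 191 to 279 CPM in KO. Those values rest on 0, 1 and 2 counts in Het and 1 and 1 in KO, too few to compare. Smarca2 was at 8131 and 16584 CPM in M2 Het and at 7448 and 7887 CPM in M2 KO, and the early 2-cell values were all at or under 3624 CPM. Lrrfip1 was at 25476 and 50695 CPM in M2 Het and at 16229 and 24732 CPM in M2 KO, with the same order of groups as at PN5. For Taf7, Smarca2 and Lrrfip1 the interaction of PN5 with M2 had unadjusted p-values of 0.738, 0.598 and 0.876. Cyp11a1 ran the other way in eggs, with 447 and 7227 CPM in M2 Het and 0 and 108 CPM in M2 KO.

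**Figure D5:**
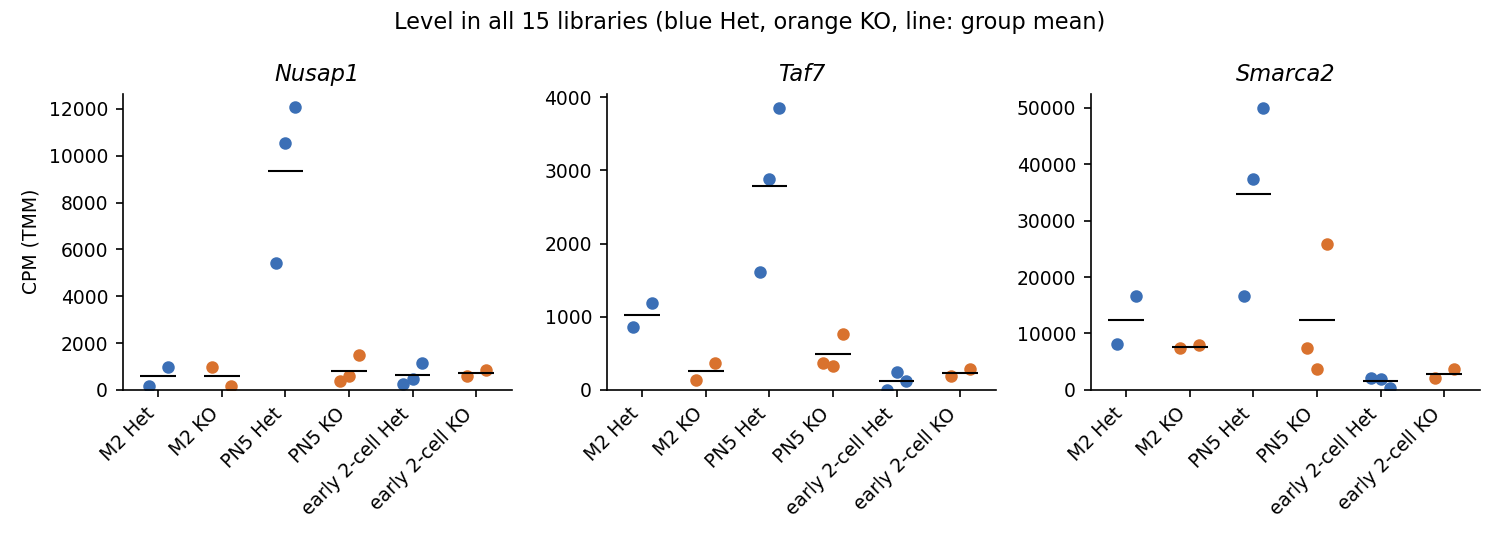
Level of Nusap1, Taf7 and Smarca2 in all 15 libraries, in CPM, by stage and donor genotype (blue Het, orange KO, 1 point a library; line, group mean). For Nusap1 the 3 PN5 Het points lie between 5411 and 12065 CPM and the other 12 at or under 1506 CPM.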

How the data were processed

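Ribosome-protected RNA from HA pulldowns was counted for 15 libraries. The deposited values were estimated counts per gene, whole numbers, made by the authors with StringTie 2.1.4 after trimming with cutadapt and alignment with STAR 2.7.6a to GRCm38, per the submitters' processing notes; what was done with reads of several alignments is not given in the sources read. Rounding on reading changed nothing. RefSeq's GRCm38.p6 table gave each gene's class and position, matched by symbol for 39101 and by older symbol for 164 of 55490 genes.

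From the estimated counts, 3 rRNA and 37 mitochondrial rows were dropped, TMM factors were set and genes were kept with filterByExpr (minimum count 10). edgeR 4.0.16 (R 4.3.3) fitted 6 group means over all 15 libraries by quasi-likelihood, with 9 residual degrees of freedom; adjusted p-values (Benjamini-Hochberg, threshold 0.05) are over all 533 genes tested. M2 and early 2-cell libraries entered that fit to share the estimate of spread. Composition was compared by exact permutation in scipy 1.17.1. Alternatives used limma 3.58.1 and DESeq2 1.42.0, other scalings and filters, and left out libraries. The fit was also run on simulated data as a check of the code. Its pass mark for recovering changes was set at a lower spread than these libraries had, so it says nothing of power here.

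Named were up to 10 protein-coding genes per direction by p, the 10 leading mRNAs and up to 4 members of a list; other names are said to be chosen after their values were seen, or illustrate a list or the zeros. The members and lists were chosen with earlier results of these data known. Protein sequences and transcript lengths were not used here, so the planned comparison of coding features and of levels per length was not made. A few genes are not reported here.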

Additional observations from a re-analysis of the deposited data

Results flagged for a closer look

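Mitochondrially encoded rows, which are outside the mRNA comparison, took 36% of the counts of PN5 KO library 3. The highest share in a PN5 Het library was 18.2%, and the other KO libraries had 12.1% and 9.54%. The same library had the lowest share of cytosolic rRNA, 58.9%, and the most protein-coding counts, 39997. Without this library 433 genes were tested, and 7 were higher and 10 lower in KO at an unadjusted p under 0.05 in edgeR's test. The part of its make-up in the differences between the groups was not tested.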

How the results depend on the processing

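The count of called genes was 0 in the fit reported and in all alternatives except DESeq2's Wald test, which called 1 (Nasp), and the early 2-cell against PN5 interaction called 2 without a low-count filter. Genes at an unadjusted p under 0.05 ranged from 7 to 120 over the 18 alternatives, with 7 of 269 when the PN5 libraries were fitted alone and 17 to 35 when 1 library was left out. Leaving out each library in turn gave differences of -0.07 to 0.86 (log2) for the protein-coding share, -0.23 to 0.15 for that share after the drop, -86.1 to 261 for genes at equal depth and -7.78 to 6.95 percentage points for the 10 leading mRNAs.

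Little pairing of the libraries by PN5 replicate number was seen. The deviations of same-numbered libraries correlated at -0.0958, -0.227 and 0.113, and 1 of the 3 numbers matched best with itself, replicate 3. So few pairs cannot show that pairing was absent. With the number as a replicate block within stage (5 residual degrees of freedom), 7 genes were at an unadjusted p under 0.05 and 0 were called, with a smallest adjusted p of 0.772 in edgeR's test; the interactions gave 9 and 6 genes and 0 calls. The composition differences with the block were 0.45, -0.09, 75.1 and -1.73, with exact sign-flip p of 0.75, 0.75, 1 and 0.75, and 0.25 is the smallest p possible.

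Of 1113 fitted changes of 71 named genes under alternatives, 1066 kept sign and side of the threshold, 46 changed sign in 15 genes and 1, Nasp at -23.26 with DESeq2, passed it. With DESeq2 size factors Nexn was 0.05, Psip1 0.07, Rpl4 0.04 and Rps14 0.19, and with DESeq2's Wald test they were 0.05, 0.07, 0.03 and 0.18. Without TMM and with all rows in the scaling Smarca4 was -0.07, and with PN5 libraries alone -0.04. With protein-coding rows alone Nexn was 0.01 and Rps14 0.06, and with at least 50 counts Nexn was 0.11, Map1b 0.01 and Rps14 0.19. Rps14 was also 0.76 with limma-voom, 1.32 with the replicate block and 0.04 without 3 abundant noncoding rows (CT010467.1, Mir6236 and Mir6240), an alternative chosen after seeing the data. Without replicate 3 of both groups Eif5b was 0.07, Nexn 0.26, Cnot1 -0.20 and Pdia4 -0.33. Over the single libraries left out, the range was -0.56 to 0.26 for Eif5b, -0.23 to 0.16 for Nexn, -0.97 to 0.23 for Acbd3, -0.40 to 0.09 for Map1b, -0.85 to 0.46 for Psip1, -0.25 to 1.13 for Eif4g2, -3.24 to 1.84 for Eef1a1, -0.88 to 1.95 for Kdm1a, -0.38 to 0.49 for Smarca4, -1.70 to 0.19 for Rps25, -0.92 to 0.34 for Rpl4, -0.67 to 2.32 for Rps14 and -9.21 to 8.11 for Hsp90ab1. The cause was not tested. Ssb, Eif3c and Ino80 without Het library 1, and Sart3 without KO library 1, had no counts left and no value. Fits of genes listed at 0 in a library (Acbd3, Psip1, Eef1a1, Kdm1a, Rps25, Cnot1 and Hsp90ab1) are no measure of size, and both ends of the Hsp90ab1 range are fits against a group with 0 counts. As a limit of depth, 3 counts came to 69.5 to 246 CPM in a PN5 library.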
